A study of Mus musculus with 25 samples.

Results

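Gene expression at 16 weeks of age was compared with that at 4 weeks, with 5 male mice of the strain C57BL/6.NOD-Aec1Aec2 per age, in whole salivary gland tissue and across all genes named on the array. The members were chosen by the age in the labels, and these 10 samples are 10 of the 25 in the series, which also holds 5 mice each of 8, 12 and 20 weeks. C57BL/6.NOD-Aec1Aec2 is a C57BL/6 line into which Idd3 (Aec1) and Idd5 (Aec2), regions of chromosomes 3 and 1, were bred from the NOD mouse, and every mouse of both groups carried both regions; it is used as a model of Sjögren's syndrome, an autoimmune disease of the exocrine glands. The labels name no treatment, each sample was 1 mouse, each age drew on several litters, and the tissue combined submandibular, sublingual and parotid lobes with the salivary lymph nodes taken off. The labels' descriptions place 4 weeks before disease and 16 weeks in the first clinical phase. C57BL/6J mice of the same ages were not analysed here, so a change with age in this strain cannot be told apart from growth of the gland.

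The extracellular matrix of a gland is made mainly by fibroblasts, which secrete fibrillar collagens that are trimmed, hydroxylated and crosslinked into fibers, while epithelium and endothelium rest on a basement membrane of laminins, nidogens and type IV collagen. MHC class II molecules present peptides to CD4 T cells and are carried by B cells, dendritic cells and macrophages, and by epithelium under interferon gamma; MHC class I molecules, carried by nearly all cells, present peptides cut by the immunoproteasome. In the salivary glands of this strain leukocytes gather in foci as disease develops, and IgA made by plasma cells is passed into saliva.

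Values are the deposited log2 expression values, so that 1 unit is a 2-fold difference, and a gene is the mean of its expressed probe sets. Of 18194 genes, 312 were higher (1.71%) and 306 lower (1.68%) at 16 weeks at an adjusted p under 0.05 in limma, and "rose" and "fell" are used below only of such genes. Among them 153 rose and 133 fell by more than 2-fold. In 204 of the risen genes all 5 mice of 16 weeks lay above all 5 of 4 weeks, and in 214 of the fallen genes all 5 lay below. Over all genes this separation was seen upward in 404 (2.22%) and downward in 393 (2.16%). The median difference over the 11696 genes with an expressed probe set was 0.02.

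Some arrays stood apart. Mouse 2 of 16 weeks had the lowest upper quartile of the 10 arrays (5.20, next 5.34) and the lowest median correlation with its own age (0.953). The mean of 8 reference genes in it differed from the 4-week mean by -0.56, with -0.47 to 0.22 at 4 weeks. Whether this lowered its values in the lists below was not tested. Mice 3 and 4 of 16 weeks were the most alike of the pairs compared within the 2 ages (r = 0.9953, next 0.9864). These correlations were taken over the 11696 genes with an expressed probe set. The labels give them as separate biological replicates; whether they share a source was not tested, and with the pair counted as 1 sample 8 immune genes rose in place of 22. The log2 gap between 3' and 5' probe sets of Actb, a sign of RNA integrity, was 2.18 to 2.67 at 4 weeks and 2.33 to 3.68 at 16 weeks, while that of Gapdh was 0.49 to 1.68 and 0.25 to 1.21; their part in the results was not tested. Mouse 3 of 20 weeks (median correlation 0.802) entered the comparison of 16 with 4 weeks only through the spread shared by all ages, and without it 747 genes rose and 588 fell. Genes of serous cells were low in some mice. Amylase (Amy1), a serous enzyme chosen after its values were seen, read 14.89, 8.42, 15.62, 15.86 and 15.75 in mice 1 to 5 of 4 weeks and 15.66, 9.93, 15.75, 15.74 and 9.80 in those of 16 weeks. The secreted nuclease Dnase1 and the salivary peptide gene Smr3a were low in the same 3 mice, mouse 2 of 4 weeks and mice 2 and 5 of 16 weeks; whether the share of each gland differed was not tested. With the mean of these 3 genes as a covariate, 321 genes rose and 301 fell.

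Of 177 extracellular matrix genes measured, 37 fell at 16 weeks (20.9%, against 1.68% of all genes) and none rose in limma. At an unadjusted p under 0.05, 7 were higher. The 37 were 12.1% of all fallen genes, where the lists held 177 of the 18194 genes. The median difference over the 177 was -0.05. Of 41 collagen chains 14 fell. In bulk tissue, fewer fibroblasts and less of these RNAs in each fibroblast cannot be told apart. The mean of the 108 expressed matrix genes was 0.26, 0.74, 0.61, 0.62 and 0.30 below the 4-week mean in mice 1 to 5 of 16 weeks, each lower than the lowest mouse of 4 weeks (-0.25).

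Of 11 fibrillar collagens, the rope-like chains of connective tissue, 6 fell and the median difference was -1.46, against -0.02 over all genes. Col1a1, the main chain of type I collagen, read 8.92, 9.26, 9.04, 8.63 and 8.60 in mice 1 to 5 of 4 weeks and 6.04, 4.88, 5.50, 5.15 and 5.88 in mice 1 to 5 of 16 weeks. It fell by 3.40 (SE 0.24, 10.5-fold, adjusted p = 2.4e-08), and the lowest young mouse stood well above the highest older one. Col1a2, its partner chain, read 10.08, 10.36, 10.15, 9.69 and 9.27 at 4 weeks and 7.35, 5.85, 6.20, 5.84 and 7.40 at 16 weeks (difference -3.38, SE 0.33, adjusted p = 1.4e-06). Col3a1, which forms the finer reticular fibers, read 9.47, 9.70, 9.97, 9.55 and 8.37 at 4 weeks and 6.92, 5.77, 6.12, 6.04 and 6.81 at 16 weeks (difference -3.08, SE 0.26, 8.47-fold, adjusted p = 2.1e-07). In each of these 3 genes the groups did not overlap, and mice 1 and 5 were the highest of the 16-week mice. Col5a2, a chain of type V collagen, which sets fiber diameter, read 7.21, 8.31, 7.70, 6.92 and 6.70 at 4 weeks and 5.10, 3.78, 4.51, 4.54 and 4.75 at 16 weeks (difference -2.83, SE 0.25, adjusted p = 3.4e-07). Its partners Col5a3 (-1.55, adjusted p = 9.7e-07) and Col5a1 (-1.06, adjusted p = 1.4e-06) fell less.

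**Figure D1:**
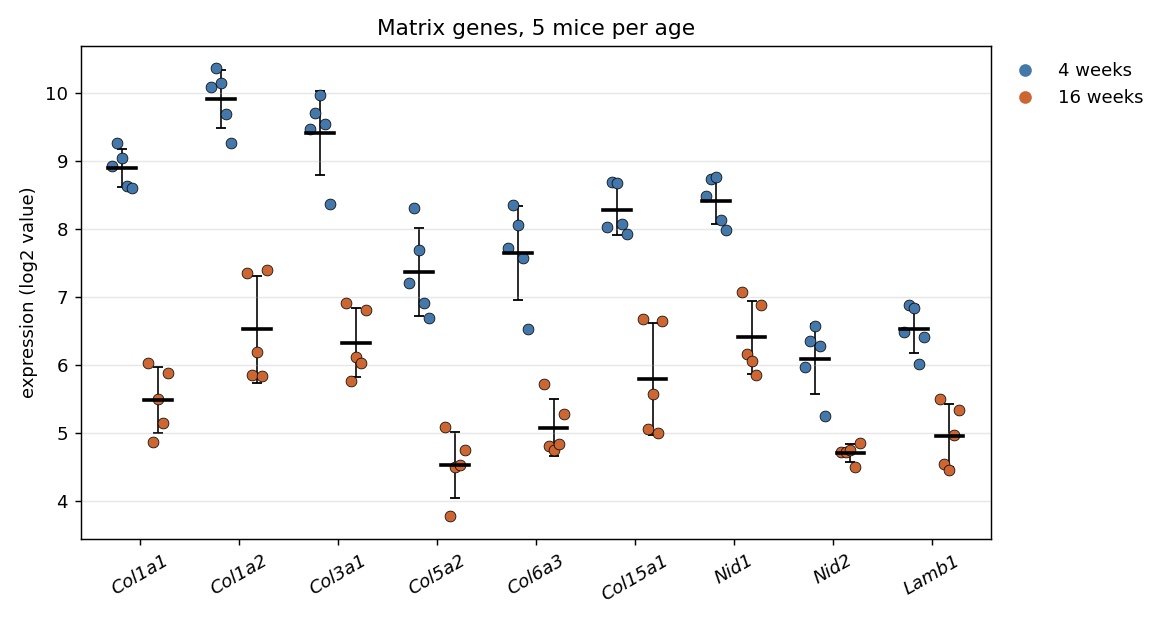
Log2 expression of 9 matrix genes in each mouse of 4 weeks (blue) and 16 weeks (orange), 5 mice per age; the horizontal line is the mean and the bars are 1 SD. In none of the 9 genes did the ages overlap, and Col1a1 lay between 8.60 and 9.26 at 4 weeks and between 4.88 and 6.04 at 16 weeks.

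The promoters of a pair of falling collagens are shown here beside those of a pair of rising class II genes described below, because members of each list moved together and the CCAAT box, bound by the factor NF-Y, is a known element of both kinds of promoter. Each is the 150 bases before the RefSeq start in GRCm38.p6, read 5' to 3' on the gene's strand, with CCAAT or its reverse complement ATTGG in capitals. Of the 3 called members with the smallest p in each list, the table used held Col3a1 and H2-Eb1 only; Col1a2 and H2-Aa were added after their values were seen. Col3a1 lies at chr1:45311388-45311537 and Col1a2 at chr6:4505468-4505617, both on the plus strand; H2-Eb1 lies at chr17:34305717-34305866 on the plus strand and H2-Aa at chr17:34287824-34287973 on the minus strand.
Col3a1: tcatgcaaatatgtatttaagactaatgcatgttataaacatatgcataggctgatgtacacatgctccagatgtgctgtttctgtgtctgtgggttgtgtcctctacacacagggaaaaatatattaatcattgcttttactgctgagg
Col1a2: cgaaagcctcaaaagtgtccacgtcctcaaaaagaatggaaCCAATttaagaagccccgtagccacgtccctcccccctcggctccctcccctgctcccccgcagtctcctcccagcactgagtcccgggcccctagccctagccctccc
H2-Eb1: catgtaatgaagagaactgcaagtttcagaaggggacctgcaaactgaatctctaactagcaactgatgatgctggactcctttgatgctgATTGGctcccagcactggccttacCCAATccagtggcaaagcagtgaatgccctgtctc
H2-Aa: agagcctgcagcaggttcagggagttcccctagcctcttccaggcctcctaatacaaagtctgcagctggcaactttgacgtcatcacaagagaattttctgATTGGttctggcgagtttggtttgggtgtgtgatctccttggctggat
The Col3a1 window held no match. Col1a2 held CCAAT starting 109 bases before the start, H2-Eb1 held ATTGG at 59 and CCAAT at 35, and H2-Aa held ATTGG at 48. The motif on either strand was in 8047 of 32851 such windows of the table (24.5%), in 2 of the 4 called fibrillar collagens it held and in 2 of the 4 windows of its 3 called class II genes. A match describes letters only.

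Of 30 other collagen chains 8 fell (median difference -0.08). Col6a3, a chain of the beaded type VI filaments around cells, read 7.72, 8.36, 8.06, 7.58 and 6.54 at 4 weeks and 5.73, 4.81, 4.76, 4.84 and 5.28 at 16 weeks (difference -2.57, SE 0.39, adjusted p = 0.00049). Its partners Col6a1 (-1.78, adjusted p = 0.00168) and Col6a2 (-1.33, adjusted p = 0.00013) fell with it, although a mouse of 16 weeks overlapped the young group in Col6a1. Col15a1, of the basement membrane zone, fell by 2.48 (adjusted p = 5.3e-05) and Col14a1, a fibril-associated chain, by 1.29 (adjusted p = 0.0118).

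Of 21 basement membrane glycoproteins 7 fell. Nid1, nidogen 1, which links laminin to type IV collagen, read 8.48, 8.73, 8.76, 8.14 and 7.98 at 4 weeks and 7.08, 6.17, 6.06, 5.86 and 6.88 at 16 weeks (difference -2.01, SE 0.24, 4.02-fold, adjusted p = 2e-05). Nid2 fell by 1.38 (adjusted p = 5.8e-06). The laminin chains Lamb1 (-1.56, adjusted p = 6.2e-05), Lama2 (-1.23, adjusted p = 0.00036) and Lamc1 (-1.39, adjusted p = 0.00665) fell as well, and so did Pxdn, the peroxidase that crosslinks type IV collagen (-1.24, adjusted p = 0.00014). Col4a5, a type IV chain counted among the other collagens, fell by 1.80 (adjusted p = 0.00015). In the 7 genes named here no mouse of 16 weeks reached the lowest mouse of 4 weeks.

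Some genes that process or remodel collagen also fell. Of 24 genes of collagen modification and crosslinking 5 fell: the collagen chaperone Serpinh1 (-0.96, adjusted p = 0.0394), the lysyl hydroxylase Plod1 (-0.90, adjusted p = 0.0301), the prolyl 3-hydroxylation subunit Crtap (-0.95, adjusted p = 0.0204), the procollagen C-proteinase enhancer Pcolce (-1.01, adjusted p = 0.0266) and the lysyl oxidase-like Loxl1 (-1.43, adjusted p = 0.0388). Only Crtap of these 5 had groups that did not overlap. Of 26 matrix proteases and inhibitors 4 fell and none rose: the collagen-degrading cathepsin Ctsk (-1.13, adjusted p = 0.00205), the gelatinase Mmp2 (-0.84, adjusted p = 0.00449), its membrane-bound activator Mmp14 (-0.80, adjusted p = 0.0112) and the serine protease Htra1 (-0.94, adjusted p = 0.0187). The elastic fiber list had 2 of 15 genes fallen (13.33%, against 1.68% of all genes). They were Eln, elastin (-1.17, adjusted p = 0.002), and Fbln5, its assembly protein (-0.43, adjusted p = 0.0149). The proteoglycans had 1 of 21 fallen (4.76%), Ogn (-0.63, adjusted p = 0.00578). The adhesive and matricellular glycoproteins had 4 of 29 fallen (13.79%), among them Matn2 (-1.29, adjusted p = 0.00313) and Ccn4 (-0.98, adjusted p = 0.0003). Ccn4 had no probe set above the threshold for expressed. Of 20 fibroblast markers 3 fell, the PDGF receptors Pdgfrb (-1.17, adjusted p = 0.00212) and Pdgfra (-0.57, adjusted p = 0.0165) and the surface protease Fap (-1.03, adjusted p = 0.0142); the expressed probe sets of Pdgfra ranged from -1.18 to 0.05.

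The fibrillar collagens were already low at 8 weeks. Their median difference from the same 4-week mice was -1.48 at 8 weeks, -1.46 at 12 weeks and -1.11 at 20 weeks (-1.35 without mouse 3 of that age). By the mean of the 9 expressed chains, the mice of 8 weeks lay at -1.45 to -1.29 and those of 16 weeks at -2.10 to -1.60. Those of 12 weeks lay at -1.72 to -1.40 and those of 20 weeks at -1.72 to -1.50. Against 8 weeks, 3 of 18194 genes (0.0165%) differed at 16 weeks, and Col1a1 was among them, lower by a further 1.51 (adjusted p = 0.0262). Against 12 weeks 1 gene (0.0055%) differed, Tnfrsf19, and it was no matrix gene. At an unadjusted p under 0.05, 1386 and 1395 genes differed. With mouse 3 of 20 weeks left out of the shared spread, 8 genes passed against 8 weeks and 8 against 12 weeks. Of the fibrillar collagens 1 and 0 passed.

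**Figure D2:**
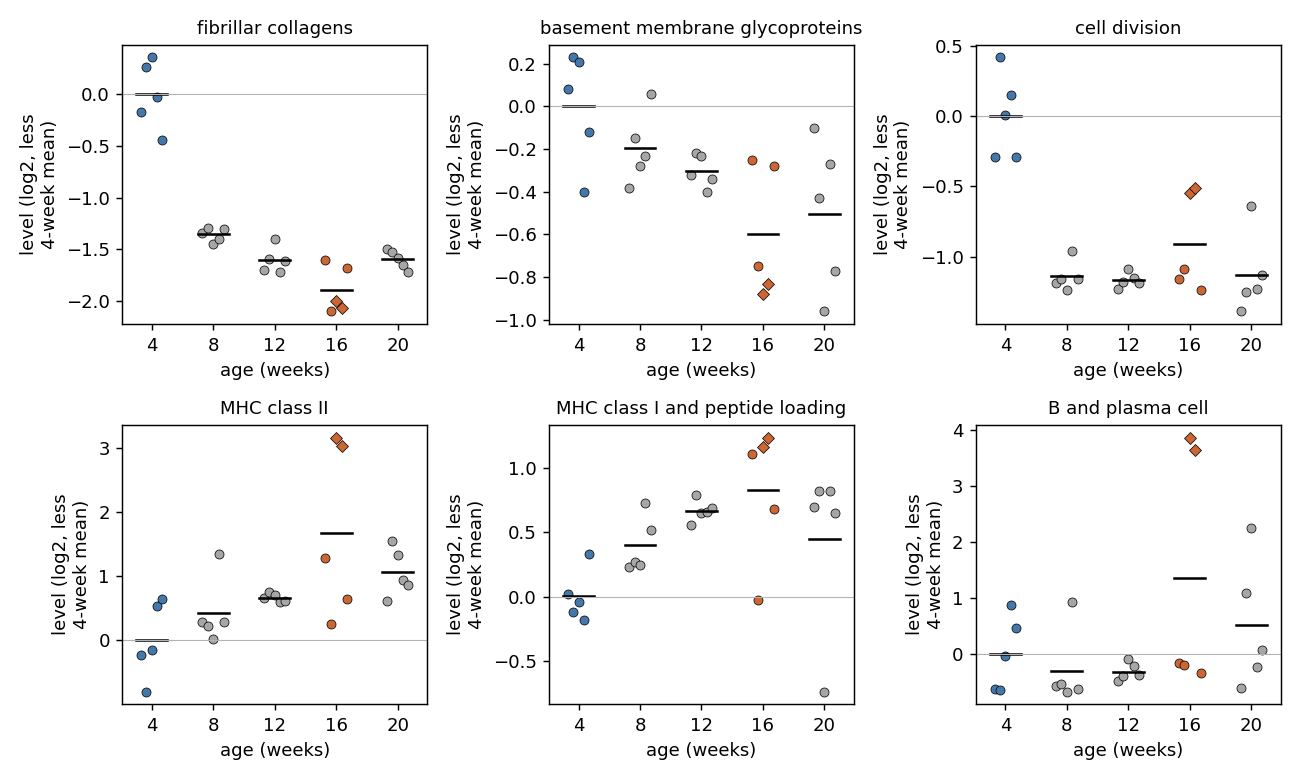
Mean log2 level of the expressed members of 6 lists in each mouse, less the mean of the 4-week mice, by age in weeks, with 5 mice per age and the mean as a line; 4 weeks is blue, 16 weeks orange with mice 3 and 4 as diamonds, and the other ages gray. The fibrillar collagens were at -2.10 to -1.60 in the 16-week mice and the B and plasma cell list reached 3.86 and 3.64 in mice 3 and 4 only.

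Of 317 genes in the immune lists 22 rose (6.94%, against 1.71% of all genes) and 2 fell (0.63%, against 1.68%). The risen ones were 7.1% of all risen genes, where the lists held 317 of the 18194 genes. The lists with most calls were MHC class I and peptide loading (8 of 20) and MHC class II (5 of 10), while the lists of pan-leukocyte (20), T cell (22), cytotoxic and NK (14), dendritic cell (15), granulocyte (18) and cytokine (42) genes gave none in limma. At an unadjusted p under 0.05 those 6 lists held 5, 5, 2, 4, 0 and 1 higher genes. In the same order, 17, 5, 2, 8, 3 and 12 of their members had an expressed probe set. Low signal limited what the other members could show. The mean of the 182 expressed immune genes differed from the 4-week mean by 0.39, -0.15, 1.16, 1.14 and 0.10 in mice 1 to 5 of 16 weeks, with -0.21 to 0.25 at 4 weeks, so that mice 2 and 5 lay within the young range. Leaving out single arrays gave 8 to 47 risen immune genes, with 8 without mouse 3 of 4 weeks or mouse 3 or 4 of 16 weeks and 47 without mouse 2 of 16 weeks.

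**Figure D3:**
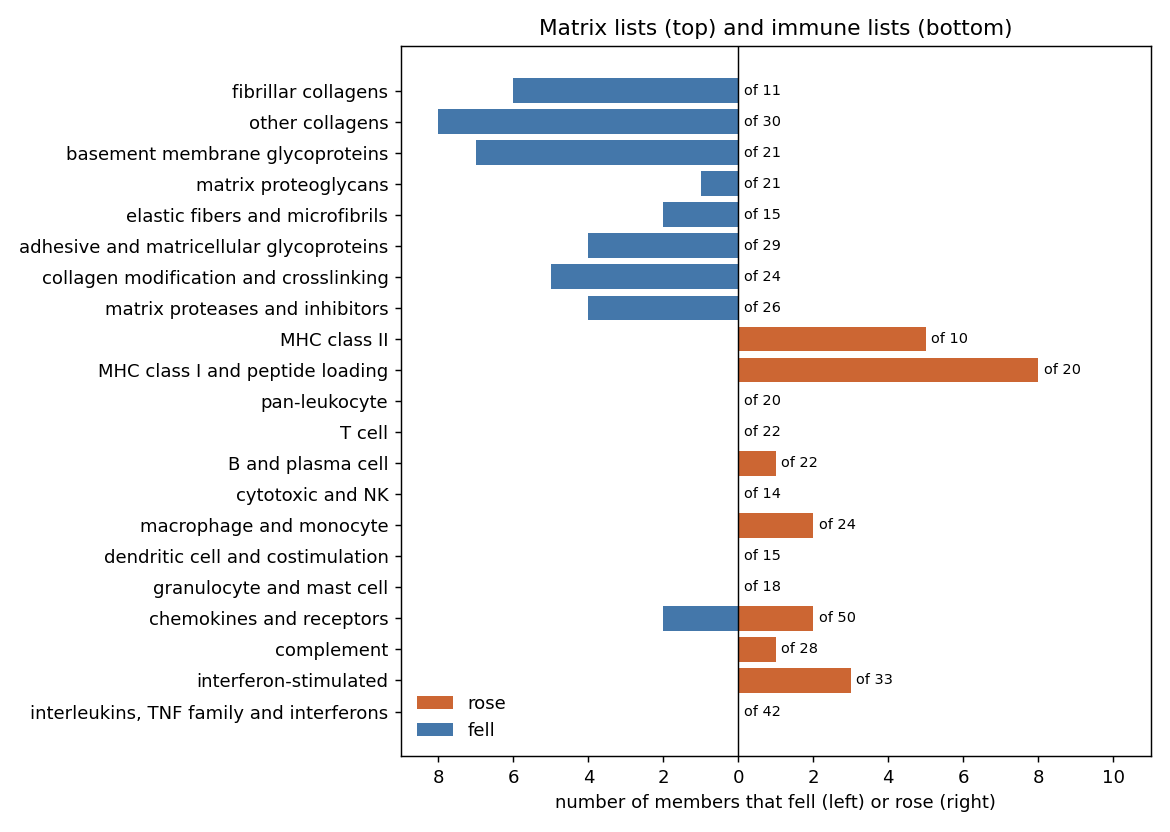
Number of genes of each matrix list (top 8) and immune list (bottom 13) that fell (blue, to the left) or rose (orange, to the right) at 16 weeks at an adjusted p under 0.05, with the number measured beside the bar. No matrix gene rose, and 13 of the 22 risen immune genes were in the lists of MHC class II (5) and of MHC class I and peptide loading (8).

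In MHC class II the median difference was 1.51 over the 10 genes. H2-Eb1, the beta chain of I-E, read 8.06, 7.27, 7.86, 8.20 and 8.98 in mice 1 to 5 of 4 weeks and 10.54, 8.83, 11.44, 11.24 and 9.65 in those of 16 weeks (difference 2.26, SE 0.37, 4.81-fold, adjusted p = 0.00102). H2-Ab1, the beta chain of I-A, read 5.55, 5.28, 5.73, 5.43 and 6.78 at 4 weeks and 8.22, 6.58, 9.16, 9.15 and 7.43 at 16 weeks (difference 2.35, SE 0.45, 5.11-fold, adjusted p = 0.0043). Cd74, the invariant chain that guides class II through the cell, read 9.69, 8.87, 9.51, 10.44 and 10.68 at 4 weeks and 11.72, 10.26, 12.79, 12.71 and 11.10 at 16 weeks (difference 1.88, SE 0.39, adjusted p = 0.00852). In all 3 genes mice 3 and 4 were highest, then mice 1 and 5, and mouse 2 fell within the young range. H2-Aa (1.68, adjusted p = 0.0242) and the peptide-exchange chain H2-DMa (1.83, adjusted p = 0.0419) also rose with overlapping groups. Without mice 3 and 4 H2-Eb1 stayed past the threshold (1.60, adjusted p = 0.0174), whereas H2-Ab1 (1.66, adjusted p = 0.0746) and Cd74 (1.19, adjusted p = 0.128) did not. In a fit of the arrays of these 2 ages alone no class II gene passed (H2-Eb1, adjusted p = 0.0854).

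In MHC class I and its peptide supply, with 8 of 20 genes risen, the median difference was 0.88. H2-Q2, a class Ib heavy chain, read 4.84, 4.86, 5.54, 5.37 and 6.17 at 4 weeks and 8.56, 6.58, 7.83, 8.29 and 8.11 at 16 weeks, with no overlap (difference 2.52, SE 0.42, 5.72-fold, adjusted p = 0.00135). Probe sets for such near-identical genes can share targets, so which class I gene was read is uncertain. Against 4 weeks, H2-Q2 was already higher by 1.91 at 8 weeks (adjusted p = 0.0191) and by 2.72 at 12 weeks (adjusted p = 0.000649). Over all 317 immune genes 3 were higher at 8 weeks in limma. B2m, the light chain shared by class I molecules, read 11.92, 11.17, 11.20, 11.19 and 12.08 at 4 weeks and 12.76, 11.91, 12.85, 12.86 and 12.95 at 16 weeks (difference 1.16, SE 0.31, adjusted p = 0.0423). Mouse 2 was the only mouse of 16 weeks within the young range of B2m, which passed in 17 of 38 other settings. The class Ib chain H2-M3 (1.12, adjusted p = 0.0284), the immunoproteasome subunits Psmb8 (0.91, adjusted p = 0.025) and Psmb9 (1.48, adjusted p = 0.0396) and the proteasome activator Psme1 (1.17, adjusted p = 0.0111) rose too. Mean list levels in mice 1 to 5 were 1.11, -0.03, 1.17, 1.24 and 0.68 above the 4-week mean.

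Among 33 interferon-stimulated genes 3 rose, the guanylate-binding Gbp6 (1.10, adjusted p = 0.0333), the GTPase Igtp (0.93, adjusted p = 0.0401) and the transcription factor Irf1 (0.79, adjusted p = 0.05 after rounding). Cxcl9, an interferon gamma-induced chemokine for T cells, read 3.67, 3.71, 3.61, 3.81 and 3.94 at 4 weeks and 5.91, 3.85, 6.20, 5.86 and 4.95 at 16 weeks (difference 1.61, SE 0.38, 3.05-fold, adjusted p = 0.019). Mouse 2 again stood with the young mice. Of 50 chemokines and receptors the other risen gene was the scavenging receptor Ackr4 (1.90, SE 0.38, adjusted p = 0.00612), which did not overlap. Ackr4 was already higher by 1.76 at 8 weeks than at 4 weeks (adjusted p = 0.0159). Risen genes made up 4.0% of this list, against 1.71% of all genes, and fallen genes 4.0%, against 1.68%. The 2 that fell were the eosinophil attractant Ccl11 (-0.79, SE 0.16, adjusted p = 0.00734) and Ccl28, a mucosal chemokine of salivary epithelium (-1.15, SE 0.29, adjusted p = 0.0262), and neither overlapped. In 24 macrophage and monocyte genes the lysosomal protease Ctss (1.09, adjusted p = 0.0156) and the lectin Lgals3 (1.53, adjusted p = 0.0174) rose, both of which epithelium can also express, while the receptor Csf1r was at 0.52 (adjusted p = 0.0605). Lgals3 was already higher by 1.46 at 8 weeks than at 4 weeks (adjusted p = 0.0306). At that age Ctss did not pass (0.23, adjusted p = 0.703). Of 28 complement genes C1qb alone, a chain of the initiating complex, rose (0.94, adjusted p = 0.0468), which was 3.57% of the list against 1.71% of all genes. C1qb and Irf1 each passed in 13 of 38 other settings.

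**Figure D4:**
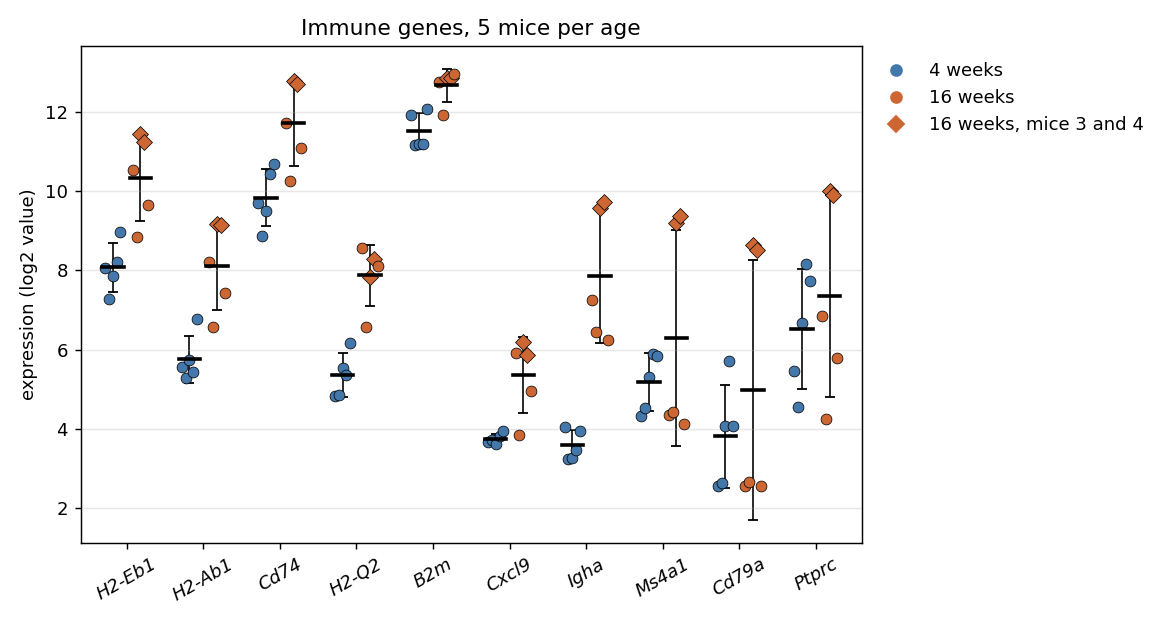
Log2 expression of 10 immune genes in each mouse of 4 weeks (blue) and 16 weeks (orange; mice 3 and 4 as diamonds), 5 mice per age, with the mean as a line and bars of 1 SD. Igha and H2-Q2 did not overlap between ages, whereas Ms4a1, Cd79a and Ptprc were high in mice 3 and 4 and within the young range or below it in the other 3.

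Of 22 B and plasma cell genes 1 rose (4.55%, against 1.71% of all genes). Igha, the constant region of IgA heavy chain, read 4.05, 3.23, 3.26, 3.46 and 3.95 at 4 weeks and 7.26, 6.44, 9.58, 9.72 and 6.24 at 16 weeks (difference 4.26, SE 0.64, 19.2-fold, adjusted p = 0.0004). All 5 older mice lay above all 5 young ones, and without mice 3 and 4 the difference was 3.06 (adjusted p = 0.00526). It was also higher than at 8 weeks, by 3.89, the only gene to rise in that comparison.

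Among the genes of this list that did not pass, 3 that define B cells were high in mice 3 and 4 of 16 weeks alone. Ms4a1, which encodes the B cell surface protein CD20, read 4.32, 4.53, 5.31, 5.90 and 5.85 at 4 weeks and 4.36, 4.43, 9.20, 9.37 and 4.13 at 16 weeks (difference 1.11, SE 0.87, adjusted p = 0.704). Cd79a, a chain of the B cell receptor, read 2.57, 2.63, 4.06, 5.71 and 4.07 at 4 weeks and 2.56, 2.65, 8.64, 8.52 and 2.55 at 16 weeks (1.18, SE 1.05, adjusted p = 0.786). Ighm, the IgM heavy chain, read 3.13, 3.07, 4.24, 4.55 and 4.71 at 4 weeks and 3.29, 4.29, 8.91, 8.50 and 3.28 at 16 weeks (1.72, SE 1.13, adjusted p = 0.589). The other 3 older mice did not exceed the young range in any of these genes. Ptprc, CD45 of all leukocytes, showed the same order, with 10.01 and 9.89 in mice 3 and 4 against 6.84, 4.24 and 5.80 in mice 1, 2 and 5 and 4.56 to 8.15 at 4 weeks.

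No T cell gene passed the test, and only 5 of the 22 measured had an expressed probe set. The T cell receptor chain gene Cd3e differed by -0.14 (adjusted p = 0.926), and the coreceptors Cd4 and Cd8a by 0.13 (adjusted p = 0.926) and 0.17 (adjusted p = 0.596). Il7r, the interleukin 7 receptor, was at 0.49 (adjusted p = 0.299) and Ccr7, the homing receptor of naive lymphocytes, at 0.96 (adjusted p = 0.37).

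Mice 3 and 4 of 16 weeks were the 2 highest of the 10 mice in 106 of the 317 immune genes (33.4%), against 6.07% of all genes and 2 of 177 matrix genes. By list these were 9 of 10 MHC class II, 17 of 20 pan-leukocyte, 17 of 22 B and plasma cell and 9 of 22 T cell genes, and 6 of 20 class I genes. Markers of lymph node moved unevenly with this. Glycam1, a ligand of the high endothelial venules of lymph nodes, read 4.14, 4.27, 9.11, 9.62 and 8.07 at 4 weeks and 3.76, 4.35, 7.79, 7.12 and 4.13 at 16 weeks (difference -1.62, SE 1.06, adjusted p = 0.581). It was high in mice 3, 4 and 5 of 4 weeks as well, and Ltb, the lymphotoxin beta gene of lymphocytes, read 5.50, 6.73 and 7.10 in those mice and 9.47 and 9.46 in mice 3 and 4 of 16 weeks. Over the 13 genes of lymph node and leukocyte entry 0 passed the test in limma (3 were higher at an unadjusted p under 0.05), and the list level ran from -0.87 to 1.03 at 4 weeks and was -0.74, -0.72, 1.68, 1.36 and -0.78 in mice 1 to 5 of 16 weeks. With the Glycam1 level as a covariate, 67 immune genes rose, 19 of them among the 22, and Ms4a1 passed (2.15, adjusted p = 0.0394). Without mice 3 and 4, 3 immune genes rose (H2-Eb1, H2-Q2 and Igha) and 23 matrix genes fell. With the pair averaged as 1 array, 8 immune genes rose and 28 matrix genes fell.

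**Figure D5:**
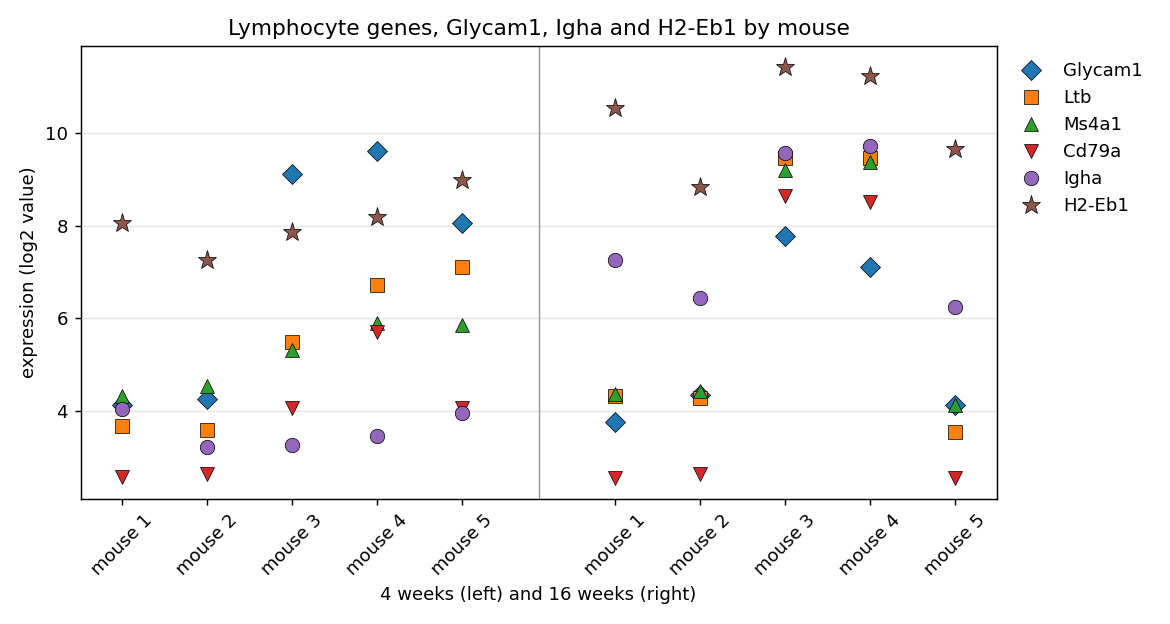
Log2 expression of Glycam1, Ltb, Ms4a1, Cd79a, Igha and H2-Eb1 in each of the 10 mice, 5 of 4 weeks on the left and 5 of 16 weeks on the right. Ms4a1 and Cd79a were high in mice 3 and 4 of 16 weeks, Glycam1 was high in those and in mice 3, 4 and 5 of 4 weeks, and Igha was higher in every mouse of 16 weeks than in any of 4 weeks.

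No class II gene passed between 16 weeks and 8, 12 or 20 weeks. The list's median difference from the 4-week mice was 0.26 at 8 weeks, 0.20 at 12 weeks and 0.75 at 20 weeks (0.37 without mouse 3 of that age). Against 4 weeks, H2-Eb1 (1.56, adjusted p = 0.0134) and Cd74 (1.31, adjusted p = 0.0471) were already higher at 12 weeks in limma. H2-Ab1 (1.44, adjusted p = 0.0561), H2-Aa (1.25, adjusted p = 0.0715) and H2-DMa (0.42, adjusted p = 0.641) did not pass at 12 weeks. Between 16 and 20 weeks 5 of 18194 genes (0.0275%) passed, none of them in a matrix or immune list, and 1313 did at an unadjusted p under 0.05. Without mouse 3 of 20 weeks 46 genes passed, the 5 among them, with 2 matrix and 3 immune genes. The largest was the clock-controlled transcription factor Dbp, lower by 3.27 at 20 weeks (adjusted p = 0.000362); it differed by 0.63 between 16 and 4 weeks (adjusted p = 0.518).

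Outside these lists, 12 of 34 cell division genes fell at 16 weeks (35.29%, against 1.68% of all genes) and 0 rose. At 8 weeks 12 were already lower than at 4 weeks in limma (142 of all 18194 genes). The list's median difference was -0.52 at 8 weeks and -0.38 at 16 weeks. Mki67, a marker of cycling cells, read 5.97, 6.74, 6.51, 6.69 and 6.03 at 4 weeks and 3.22, 3.35, 4.04, 5.36 and 3.09 at 16 weeks (difference -2.57, SE 0.30, 5.96-fold, adjusted p = 2.2e-05). Mice 3 and 4 were again the highest of the older mice, below every young one. The mitotic kinase Cdk1 fell by 2.96 (adjusted p = 3.5e-08), the mitotic cyclin Ccnb2 by 2.40 (adjusted p = 2.4e-08) and the chromosomal passenger Birc5 by 2.28 (adjusted p = 5.3e-05). Ccnb2 had no probe set above the threshold for expressed, and both it and Cdk1 lay near the array's floor at 16 weeks, so their differences may be understated. Some vessel genes fell too. The apelin receptor Aplnr read 7.37, 7.80, 8.25, 7.59 and 6.64 at 4 weeks and 4.71, 2.92, 3.50, 3.33 and 3.89 at 16 weeks (difference -3.86, SE 0.45, 14.5-fold, adjusted p = 1.9e-05). This came from 1 of 2 probe sets, and in the other settings the difference ran from -4.12 to -1.99. Of 17 endothelial markers 3 fell, the receptor kinases Kdr (-0.69, adjusted p = 0.0236), Tie1 (-0.39, adjusted p = 0.0396) and Tek (-0.36, adjusted p = 0.0488). Tie1, with no expressed probe set, passed in 22 of 37 other settings and Tek in 10 of 38. Tnfrsf19, an orphan TNF receptor, had the smallest adjusted p of the comparison: it read 7.84 to 8.25 in the young mice and 5.75 to 6.23 in the older ones (difference -2.06, SE 0.13, adjusted p = 4.4e-09). Its value came from 1 of 3 probe sets, and in the other settings the difference ran from -2.16 to -0.69.

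Products of the epithelium moved in both directions. Atp4a, the proton pump subunit best known from the stomach, had the largest increase of all genes, with 6.32, 2.97, 2.56, 2.97 and 3.90 at 4 weeks and 9.40, 7.45, 8.08, 8.12 and 9.40 at 16 weeks (difference 4.74, SE 0.97, 26.8-fold, adjusted p = 0.00701). Its groups did not overlap, and at 8 weeks Atp4a was already 4.45 above 4 weeks (adjusted p = 0.0162). The potassium channel Kcnq1 rose (1.13, adjusted p = 0.0023), and its partner subunit Kcne1 (-1.73, adjusted p = 0.0132) and the anion exchanger Slc26a6 (-1.75, adjusted p = 0.00142) fell. The largest decrease was that of Smgc, the submandibular gland protein C of immature glands, which read 7.82, 12.66, 13.12, 12.33 and 8.69 at 4 weeks and 7.70, 7.81, 7.83, 7.56 and 3.64 at 16 weeks (difference -4.02, SE 0.95, adjusted p = 0.0187). Its groups overlapped, and mice 1 and 5 of the young group were low. The gene shares its locus with the mucin Muc19, so which transcript was read is uncertain. The water channel Aqp5 of acinar cells was at -0.43 (adjusted p = 0.294). Ptgds, prostaglandin D synthase, read 4.10 to 4.79 at 4 weeks and 9.45, 7.50, 6.13, 6.23 and 9.38 at 16 weeks (difference 3.24, SE 0.65, adjusted p = 0.00633), and the protease inhibitor Cst6 rose by 2.88 (adjusted p = 0.00022).

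Further genes with large differences and no overlap were in none of the lists. Cyp2b10, a cytochrome P450 of xenobiotic metabolism, read 9.48, 8.41, 8.50, 7.58 and 8.82 at 4 weeks and 10.76, 10.44, 10.67, 10.58 and 10.99 at 16 weeks (difference 2.13, adjusted p = 0.00042). Some adhesion genes rose although no listed matrix gene did: the linker protein Dst, which ties the cytoskeleton to adhesion sites (2.27, adjusted p = 0.0158, from 1 of 4 probe sets, and 0.55 over all 4), and Itga8, an integrin receptor for matrix ligands (1.97, adjusted p = 0.00869). In Itga8 the young mice read 4.49 to 6.59 and the older ones 6.94 to 8.10. Its value came from 1 of 2 probe sets, and in the other settings the difference ran from 1.0 to 2.18. Among the decreases were the cyclophilin Ppic (-2.42, adjusted p = 0.00028), the acyl-CoA thioesterase Acot1 (-2.34, adjusted p = 5.8e-06) and the mitotic kinase Pbk (-2.75, adjusted p = 2.4e-08). Pbk lay at 5.70 to 6.85 in the young mice and at 2.97 to 4.03 in the older ones.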

How the data were processed

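Values were the log2 expression values deposited by the authors for 25 Affymetrix Mouse Genome arrays, 1 mouse each, which the study's methods describe as GCRMA and the submitters' notes as RMA (version not given). Which of the 2 made these values was not settled, and GCRMA pulls dim probe sets toward a common floor, so that differences of low genes are compressed. Of 45101 probe sets, 34958 carried 1 gene symbol in the platform annotation; 932 had several and 9211 were not listed. A gene was the mean of its probe sets above 3.27, the median probe set mean, or of all where none was, giving 18194 genes. limma 3.58.1 (R 4.3.3) was fitted to all 25 arrays with a coefficient per age, so all ages shared the spread, whereas the study's methods used limma with polynomial trends over age; adjusted p is Benjamini-Hochberg over all genes and the threshold is 0.05. The fit was tested on simulated data. Mice were grouped by labelled age; the number of arrays limits the precision.

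The comparison and gene lists were chosen with earlier results of these data known. Genes were named as the largest changes without overlap, the members of each list with the smallest p, genes the study's text names, and defining cell markers; others are said to be chosen after their values were seen. Alternatives covered probe set summary, normalization, array weights, prior, samples and single arrays left out.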

Additional observations from a re-analysis of the deposited data

Results flagged for a closer look

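Among 228 groups of 5 mice (114 named genes, 2 ages), 20 had a mouse far from the other 4. Chance gives about 1 in 20 for independent groups, but these all come from the same 10 mice, so no expected count was set. Mouse 2 of 16 weeks was the distant mouse in 8 of the 20. It was lowest for Col14a1 (2.84), Crtap (6.01), B2m (11.91), Lgals3 (11.12), Ctsd (11.30) and Dbp (10.12) and highest for Ccn4 (2.95) and Cdk1 (3.26). Mouse 1 of 16 weeks was highest for Mmp2 (5.25) and Atp6v1e1 (8.44) and lowest for Rnf122 (4.31). Mouse 5 of 16 weeks was lowest for Kcne1 (3.71) and Smgc (3.64), and mouse 3 was highest for Cd3e (3.71). At 4 weeks mouse 5 was highest for Psmb8 (5.49) and Ctss (9.38), mouse 4 for Ccr7 (3.77) and Il7r (3.39) and mouse 3 for Igfbp3 (7.48), and mouse 1 was lowest for Kcns3 (4.33).

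A few genes differed between 16 weeks and a neighboring age in limma. Tnfrsf19 was lower at 16 weeks than at 8 weeks (-1.32) and than at 12 weeks (-1.32), Col1a1 was lower than at 8 weeks (-1.51) and Igha was higher (3.89). From 16 to 20 weeks Dbp changed by -3.27, Usp2 by -2.09, Hdac11 by -0.84, Rnf122 by 0.75 and Mup5, a urinary protein gene, by 1.42.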

How the results depend on the processing

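Of 114 named genes 96 passed, none of those 96 changed sign under any of the 38 other settings, and 36 passed under all of them. The counts moved with the arrays used. Only the arrays of the 2 ages gave 80 genes higher and 124 lower, with 20 matrix genes lower and 3 immune genes higher. Array weights gave 1566 and 2049, with 65 and 65, and quantile normalization 538 and 609. The brightest probe set per gene gave 415 and 271, so that 60.5% of changed genes rose against 50.5%. Settings added after seeing the data gave 169 genes higher and 8 immune genes higher with the closest pair of arrays averaged, and 2166 higher and 3888 lower (84 matrix, 86 immune) without the 3 arrays of lowest correlation, where 35.8% rose. Without mice 3 and 4 of 16 weeks they were 95 and 163 (23 matrix, 3 immune; 36.8% rose), and with the Glycam1 level as a covariate 67 immune genes rose.

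Leaving out single arrays gave 151 to 747 genes higher, 204 to 588 lower, 27 to 48 matrix genes lower and 8 to 47 immune genes higher. Counts higher were 184, 167 and 151 without mice 2, 3 and 4 of 4 weeks, 162, 521, 163 and 167 without mice 1 to 4 of 16 weeks, and 747 without mouse 3 of 20 weeks, which also gave the 588 lower. The 8 immune genes came without mouse 3 of 4 weeks or mouse 3 or 4 of 16 weeks, and the 47 without mouse 2 of 16 weeks, where 64.6% of changed genes rose. The cause was not tested.

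Genes that had not passed changed sign in 14 cases. Without mice 3 and 4 these were Ighm (-0.32), Ms4a1 (-0.88), Cd79a (-1.22), Ptprc (-0.89), Ltb (-1.26), Ccr7 (-0.18), Il7r (-0.05), Cd8a (-0.05) and Vcam1 (-0.06), which follows in part from the choice of these mice as the highest. Others were Vcam1 (-0.03) and Hdac11 (0.41) by the brightest probe set, Cd3e without mouse 4 of 4 weeks (0.04) or with the covariate (0.04) and Rnf122 without mouse 1 of 16 weeks (0.02). Over single arrays left out, Cd3e ran from -0.26 to 0.04 and Rnf122 from -0.14 to 0.02. Replicate numbers did not pair the mice (correlations of -0.19 to 0.28), and with the number as a replicate block 286 genes rose and 270 fell.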

Other observations

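Of 32 genes of the vacuolar proton pump and lysosome 5 rose at 16 weeks and none fell, among them the pump subunit Atp6v1e1 (1.22, adjusted p = 0.0105 in limma), the ganglioside-degrading enzyme Hexa (1.13, adjusted p = 0.0223) and the protease Ctsd (1.11, adjusted p = 0.0266). Of 29 genes of growth factor axes 6 fell, among them the insulin-like growth factor binding proteins Igfbp5 (-1.42, adjusted p = 0.0007) and Igfbp3 (-1.01, adjusted p = 0.0133) and the imprinted growth regulator Ndn (-1.41, adjusted p = 0.00016). Tac1, the precursor of substance P, rose (1.19, adjusted p = 0.00298), and its probe sets ranged from -0.15 to 2.53. The lists of myoepithelium and smooth muscle (11 genes), skeletal muscle (11), adipocyte (9), Schwann cell (7) and erythroid (3) markers and of reference genes (8) held none that passed in limma; at an unadjusted p under 0.05, 3 of the myoepithelium and smooth muscle genes were higher and 1 Schwann cell gene was lower.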
